A study of Sus scrofa domesticus with 8 samples.

Results

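Cells kept in culture for 96 h, 4 days, were compared with the same kind of cell before culture, feature by feature, on the 2 arrays at 96 h and the 2 arrays at 0 h out of 8 arrays in all. The members were chosen by the time point in the labels, and all 27558 features of the array entered the comparison. The cells were porcine ovarian granulosa cells from crossbred Landrace gilts, 43 animals whose age was 170 days and weight 98 kg at the median, taken after slaughter. At 0 h the cells had not been cultured. At 48 h, 96 h and 144 h they had grown in DMEM with 2% fetal bovine serum, glutamine and antibiotics at 37 °C and 5% CO2, and no other agent was named for any group. The 48 h and 144 h arrays, 2 each, were used to mark which changes at 96 h were also made at the neighbouring times. The labels do not tell if both arrays at 1 time hold RNA of different animals, pools or cultures. The p-values are then a measure of the spread of these arrays alone, and that spread may be technical. Batches are not labelled, so time and a batch that went with it cannot be told apart.

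Granulosa cells line the ovarian follicle and support the oocyte. They respond to follicle-stimulating and luteinizing hormone through receptors that raise cyclic AMP, they turn androgens into estradiol, and after ovulation they become progesterone-making luteal cells. On plastic in serum they attach, spread and lose the layered arrangement of the follicle.

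Each value below is a level, the log2 of an intensity from robust multi-array averaging (RMA, a background correction, normalization across arrays and summary of each feature's probes), or a difference between the means of 2 arrays and 2 arrays on that log2 scale. A difference of 1 is 2-fold. Differences are given with the standard error (SE) of the limma model, and a feature was called when limma's Benjamini-Hochberg adjusted p over all features was below 0.05. The median level of the 4 arrays lay between 4.52 and 4.63, and their lower quartile between 3.17 and 3.25. A level near or below the lower quartile was not shown to lie above background, so a difference that rests on it is given as measured. The number of arrays limits the precision, and the median SE of a difference was 0.143.

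The 96 h arrays resembled each other more than the arrays of any other time. Over features, the difference between replicate arrays had an SD of 0.162 at 96 h, against 0.249 at 0 h, 0.265 at 48 h and 0.382 at 144 h. The mean levels at 96 h also lay apart from both neighbouring times. Over features, 96 h and 0 h correlated at r = 0.903, below 0.944 for 48 h and 0.925 for 144 h against 0 h, while 48 h and 144 h correlated at 0.981, above 0.957 for 48 h with 96 h and 0.970 for 96 h with 144 h. These correlations are across features, which are not independent replicates. The 96 h values below are therefore set beside those of 48 h and 144 h.

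At 96 h, 11375 of 27558 features (41.3%) differed from 0 h, 5228 of them higher (19%) and 6147 lower (22.3%). With each array centred on its median the split turned, with 6129 higher and 5285 lower. As deposited, 2469 were at least 2-fold higher and 2678 at least 2-fold lower. The median difference over all features was -0.03. Among the 10707 genes named through the platform annotation, 2302 were higher (21.5%) and 2508 were lower (23.4%), with a median difference of -0.01. These shares are the background for each gene list below, and the counts of higher and lower members in a list are read beside them. The lists were written with earlier results of these data known, so their counts and medians are descriptions and not tests. By comparison, 8260 features (30%) were called at 48 h against 0 h and 8845 (32.1%) at 144 h against 0 h. All of these comparisons share the 0 h arrays.

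**Figure D1:**
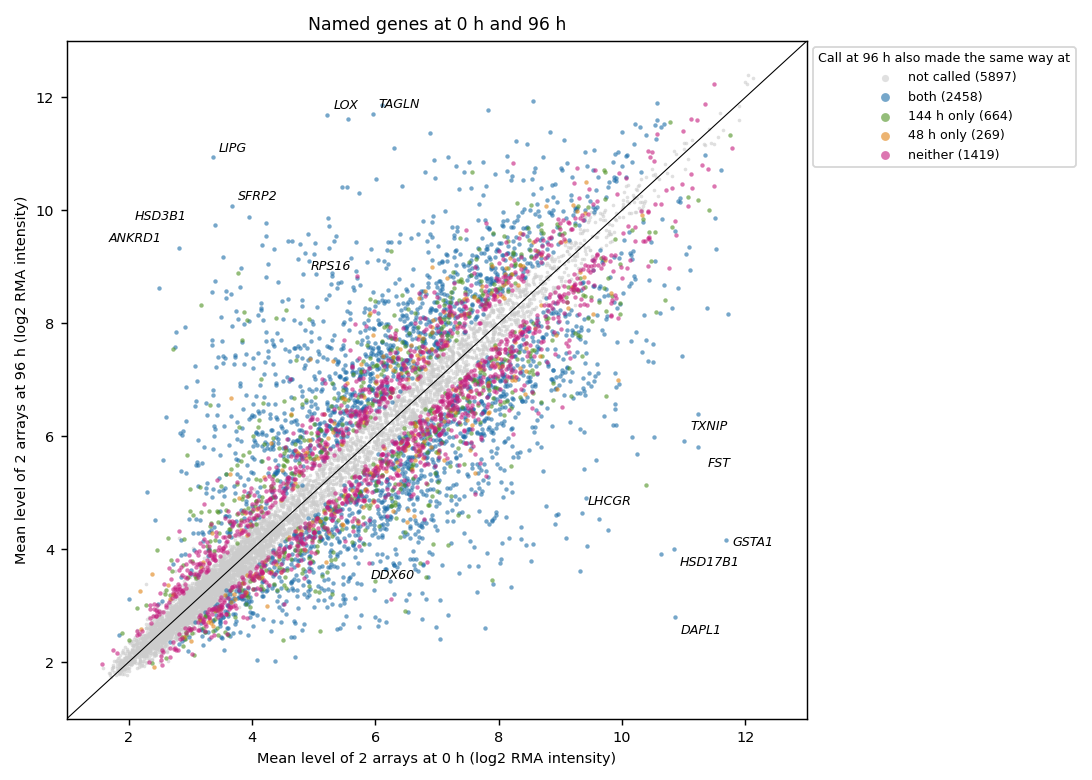
Each point is 1 of 10707 named genes, with the mean level of the 2 arrays at 0 h on the x axis and at 96 h on the y axis, both as log2 RMA intensity, and the line marks equal levels. Colour gives whether a call at 96 h was also made in the same direction at 48 h and 144 h; points of all 4 colours lie on both sides of the line, and 5897 grey genes near it were not called.

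LIPG, which encodes endothelial lipase, had the largest rise of any named gene, with levels of 3.39 and 3.33 at 0 h and 10.93 and 10.94 at 96 h. Its difference was 7.57 ± 0.23 (SE, adjusted p = 3.09e-07), and the differences from 0 h at the neighbouring times were 2.95 at 48 h and 6.73 at 144 h. ANKRD1, an ankyrin repeat protein induced by stretch and by the transcriptional regulator YAP, had levels of 2.62 and 3.02 at 0 h and 9.39 and 9.28 at 96 h. Both 0 h levels lay below the lower quartile, and the measured difference was 6.51 ± 0.31 (SE, adjusted p = 1.77e-06). No array at 0 h came near an array at 96 h for either gene. LOX, the enzyme that cross-links collagen and elastin, rose from 5.24 and 5.20 at 0 h to 11.68 and 11.71 at 96 h, a difference of 6.47 ± 0.10 (SE, adjusted p = 9.14e-08) that had been nearly as large at 48 h, 6.07. SFRP2, a secreted modulator of Wnt signalling, rose by 6.41 ± 0.21 (SE, adjusted p = 3.75e-07), and a further feature of the gene rose by 4.94. The other genes among the 15 largest rises were HSD3B1, SHAS2, FN1, LAMB1, COL1A1, TAGLN, LOC100519997, FMOD, AGTR1, ITGB3 and LTBP2, with differences from 5.24 for LTBP2 to 6.33 for HSD3B1. AGTR1 encodes the angiotensin II receptor of type 1, and its levels were 3.17 and 3.62 at 0 h and 8.71 and 8.80 at 96 h. LOC100519997 is a protein-coding gene with no name in the annotation.

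DAPL1, which encodes a death-associated protein-like factor, had the largest fall of any named gene, from 10.88 and 10.83 at 0 h to 2.80 and 2.81 at 96 h. The difference was -8.05 ± 0.16 (SE, adjusted p = 9.14e-08), and both 96 h levels lay below the lower quartile. GSTA1, an alpha-class glutathione transferase, fell from 11.69 and 11.68 at 0 h to 4.02 and 4.30 at 96 h, a difference of -7.53 ± 0.26 (SE, adjusted p = 4.99e-07). At 48 h its difference was -0.99, so most of the fall lay between 48 h and 96 h. HSD17B1, the enzyme that makes estradiol from estrone, fell by 6.83 on the log2 scale, and FST, which encodes the activin-binding protein follistatin, fell by 5.43. CCNE2, which encodes cyclin E2, had levels of 9.66 and 9.59 at 0 h and 4.28 and 4.78 at 96 h, a difference of -5.10 ± 0.20 (SE, adjusted p = 9.04e-07). TXNIP, an inhibitor of thioredoxin that limits glucose uptake, had levels of 10.91 and 11.09 at 0 h and 5.97 and 5.85 at 96 h. TXNIP was lower at 96 h than at either neighbouring time, with differences from 0 h of -5.09 at 96 h, -1.43 at 48 h and -2.18 at 144 h. The rest of the 15 largest falls were LOC100154181, PLA2G4E, SNX31, ESR1, LHCGR, CXCL10, RGS2, PDK4 and LOC100154071, with differences between -6.72 and -4.84. In all 30 genes of these groups the 96 h arrays did not overlap the 0 h arrays, which the choice of the genes required. Of the 15 falls, 14 were also called lower at both 48 h and 144 h, and LHCGR was called at 144 h but not at 48 h. All 15 rises were also called at both times.

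**Figure D2:**
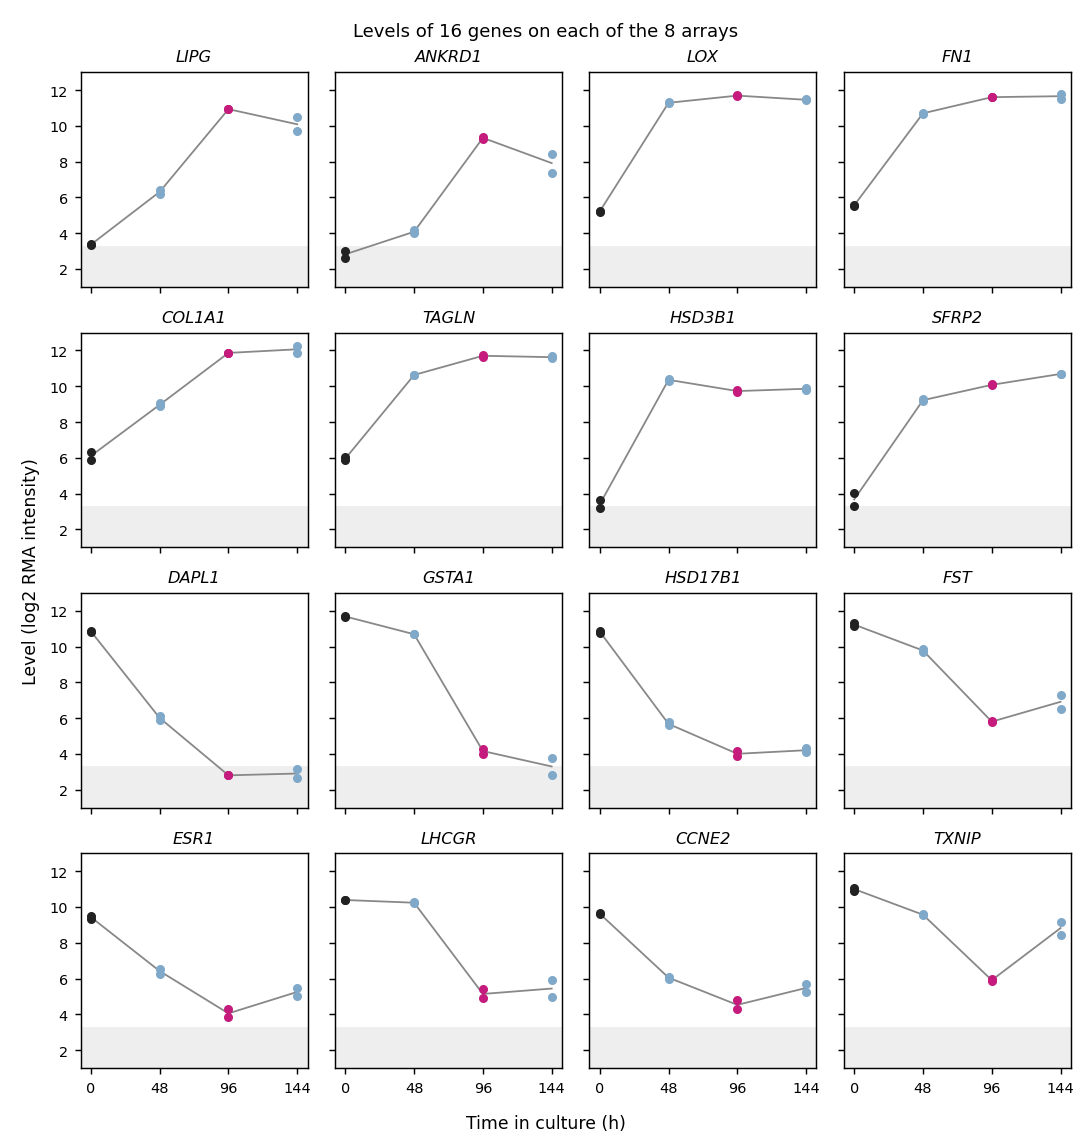
Each panel shows 1 gene, with time in culture in hours on the x axis and the level as log2 RMA intensity on the y axis; points are single arrays (black 0 h, blue 48 h and 144 h, magenta 96 h), the line joins the means of 2 arrays, and the grey band lies below the highest lower quartile of the 8 arrays, 3.25. LIPG and ANKRD1 were highest at 96 h, LHCGR stayed near 10.2 at 48 h before it fell, and TXNIP was lowest at 96 h.

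Genes by which granulosa cells are recognised were mostly lower at 96 h. Of 20 measured members, 13 fell, 3 rose and 4 were not called, with a median difference of -1.53 against -0.03 over all features. The list was drawn up with earlier results of these data known and includes DAPL1, the largest fall, so these values only describe it. In bulk RNA, fewer cells of a type and less RNA per cell cannot be told apart. AMH, the hormone made by granulosa cells of growing follicles, had levels of 5.43 and 5.63 at 0 h and 2.92 and 2.71 at 96 h, and its difference was -2.72 ± 0.16 (SE, adjusted p = 5.15e-06). Its receptor AMHR2 fell by 1.36, and at 48 h it had differed by -0.24 without passing the test. IHH, the hedgehog ligand that granulosa cells send to the theca, fell from 8.02 and 8.06 at 0 h to 3.87 and 3.78 at 96 h, a difference of -4.22 ± 0.17 (SE, adjusted p = 1.06e-06). TGFBR3, the inhibin co-receptor betaglycan, fell from 8.50 and 8.62 at 0 h to 4.06 and 4.13 at 96 h, a difference of -4.46 ± 0.11 (SE, adjusted p = 1.51e-07). IHH and TGFBR3 had reached most of that fall at 48 h, with differences of -4.33 and -3.92. AMH had a difference of -2.36 at 48 h, and its levels at 48 h and 96 h lay below or near the lower quartile. INHBA, the activin and inhibin beta A subunit, fell only by 0.89, and at 144 h it was lower still, by 2.29 on the log2 scale.

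The transcription factors of this group did not move together. ESR1, estrogen receptor alpha, had levels of 9.35 and 9.52 at 0 h and 3.83 and 4.27 at 96 h, a difference of -5.38 ± 0.20 (SE, adjusted p = 7.04e-07), and its 3 other features fell by between 3.24 and 4.23. ESR2, the beta receptor, had levels of 4.82 and 4.77 at 0 h and 4.49 and 4.84 at 96 h and a difference of -0.13 ± 0.20 (SE, adjusted p = 0.641), which was not called. NR5A1, the steroidogenic factor SF-1, fell by 1.70 and its relative NR5A2, known as LRH-1, by 3.32. GATA6 fell from 10.98 and 11.10 at 0 h to 9.13 and 9.32 at 96 h, a difference of -1.81 ± 0.13 (SE, adjusted p = 1.53e-05). WT1, a factor of immature granulosa cells, rose by 1.02 ± 0.14 (SE, adjusted p = 0.000456), and CTNNB1, beta-catenin, by 0.72 ± 0.11 (SE, adjusted p = 0.00102). NR0B1 and WNT4 stayed near the lower quartile at both times, with differences of 0.13 and -0.03 that were not called. KITLG, the KIT ligand that supports the oocyte, rose from 3.80 and 3.51 at 0 h to 6.66 and 6.70 at 96 h, a difference of 3.02 ± 0.33 (SE, adjusted p = 0.000149). KITLG was called at 48 h, with a difference of 2.49, and not at 144 h, with 1.00 and adjusted p = 0.0504. BMPR1B, a receptor for bone morphogenetic proteins, had levels of 10.16 and 10.07 at 0 h and 10.18 and 10.09 at 96 h and differed by 0.02; its other feature differed by 1.25. GJA1, which encodes the gap junction protein connexin 43 between granulosa cells, had levels of 11.75 and 11.74 at 0 h and 11.34 and 11.31 at 96 h and a small called difference of -0.42 ± 0.11 (SE, adjusted p = 0.0161) that lost its call under some alternatives.

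Receptors and signalling genes of the gonadotropin pathway fell more often than they rose. Of 16 measured members, 9 fell, 1 rose and 6 were not called, with a median difference of -0.52. LHCGR, the luteinizing hormone receptor, had levels of 10.38 and 10.40 at 0 h and 5.39 and 4.89 at 96 h, a difference of -5.25 ± 0.28 (SE, adjusted p = 3.19e-06). At 48 h the difference was -0.15 and was not called (adjusted p = 0.738), and at 144 h it was -4.95, so most of the fall lay between 48 h and 96 h. GNAS, the stimulatory G protein subunit that couples the receptor, had levels of 9.72 and 9.86 at 0 h and 9.75 and 9.78 at 96 h and was not called. Of the adenylyl cyclases, which make cyclic AMP, ADCY9 fell by 1.39 and ADCY3 by 1.13, the latter with a call lost under some alternatives. PRKACA and PRKAR1A, subunits of protein kinase A, differed by 0.40 and 0.35 and were not called.

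The phosphodiesterases, which degrade cyclic nucleotides, split. PDE7B fell from 8.95 and 8.87 at 0 h to 4.40 and 4.50 at 96 h, a difference of -4.46 ± 0.13 (SE, adjusted p = 2.98e-07). PDE3A was the member that rose, from 2.83 and 3.05 at 0 h to 6.90 and 6.83 at 96 h, a measured difference of 3.93 ± 0.16 (SE, adjusted p = 1.02e-06) from 0 h levels below the lower quartile. PDE4D and PDE10A had small called differences of -0.47 and -0.58, both lost under some alternatives, and PDE4B was not called with -0.18. The regulators of G protein signalling RGS2 and RGS4 fell by 4.89 and 3.32. RGS2 had levels of 9.09 and 9.10 at 0 h and 4.22 and 4.17 at 96 h, whereas RGS16 was not called with a difference of -0.19. CREM, a cyclic AMP-responsive transcription factor, fell by 0.62 and CREB1 lay below the lower quartile on all 4 arrays.

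Steroid synthesis genes were divided. Of 15 measured members, 5 rose, 8 fell and 2 were not called, with a median difference of -0.59. HSD3B1, which turns pregnenolone into progesterone, rose from 3.62 and 3.17 at 0 h to 9.77 and 9.70 at 96 h. Its difference was 6.33 ± 0.16 (SE, adjusted p = 1.51e-07), and both 96 h levels lay below both 48 h levels of 10.42 and 10.29. At the estradiol end, HSD17B1 fell from 10.78 and 10.90 at 0 h to 4.15 and 3.87 at 96 h, a difference of -6.83 ± 0.14 (SE, adjusted p = 9.92e-08). FDXR, the reductase that passes electrons to mitochondrial P450 enzymes, fell from 7.85 and 7.78 at 0 h to 3.94 and 3.93 at 96 h, a difference of -3.88 ± 0.12 (SE, adjusted p = 2.98e-07). HSD17B8 fell by 2.37 and HSD11B1, which regenerates cortisol from cortisone, by 1.92; both differences were smaller at 48 h and 144 h, with -0.94 at 48 h and -0.98 at 144 h and of -0.73 at 48 h and -1.34 at 144 h. CYB5A, cytochrome b5, fell by 0.59, less than at 48 h and 144 h. AKR1CL1, an aldo-keto reductase, fell by 1.40.

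Genes that bring cholesterol to this pathway also split. SCARB1, the receptor for high-density lipoprotein, fell from 10.49 and 10.57 at 0 h to 9.10 and 9.09 at 96 h, a difference of -1.44 ± 0.18 (SE, adjusted p = 0.000313). STARD4, a cholesterol carrier, rose by 1.76 ± 0.30 (SE, adjusted p = 0.00174), and the differences of -0.35 at 48 h and 0.83 at 144 h were not called. NPC2, a lysosomal cholesterol carrier, rose by 1.20 while NPC1 was not called with -0.44. TSPO, the translocator protein of the outer mitochondrial membrane, rose by 0.98, and HSD17B7, which serves both cholesterol and estradiol synthesis, by 0.88. CYP17A1, the androgen-making enzyme of theca cells, lay below the lower quartile on all 4 arrays. STAR, CYP11A1, CYP19A1 and FSHR had no feature with exactly 1 symbol entry in the table used and were not analysed here.

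Genes of ovulation and cumulus expansion showed no shared direction. Of 19 measured members, 7 rose, 6 fell and 6 were not called, with a median difference of 0.16. SHAS2, the symbol the annotation gives for hyaluronan synthase 2, had levels of 2.56 and 2.44 at 0 h and 8.61 and 8.63 at 96 h, a measured difference of 6.12 ± 0.27 (SE, adjusted p = 1.36e-06) from 0 h levels below the lower quartile. PTGES, the prostaglandin E synthase, fell from 9.32 and 9.30 at 0 h to 6.21 and 6.06 at 96 h, a difference of -3.18 ± 0.14 (SE, adjusted p = 1.43e-06). PTGFR, the prostaglandin F receptor, rose by 1.81 ± 0.12 (SE, adjusted p = 9.95e-06) and STC1, stanniocalcin 1, by 2.52 ± 0.17 (SE, adjusted p = 1.16e-05). Both had been higher at 48 h, with differences from 0 h of 3.47 and 3.67.

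Fibrillar matrix genes rose in most cases. Of 25 measured members, 20 rose, 1 fell and 4 were not called, with a median difference of 3.24. COL1A1, the alpha 1 chain of type I collagen, had levels of 5.88 and 6.33 at 0 h and 11.85 and 11.88 at 96 h, a difference of 5.76 ± 0.19 (SE, adjusted p = 3.75e-07), and a second feature rose by 3.42. FN1, fibronectin, rose from 5.52 and 5.59 at 0 h to 11.62 and 11.59 at 96 h, a difference of 6.05 ± 0.13 (SE, adjusted p = 9.92e-08). FMOD, the collagen-binding proteoglycan fibromodulin, rose from 4.24 and 4.22 at 0 h to 9.79 and 9.77 at 96 h, a difference of 5.55 ± 0.26 (SE, adjusted p = 1.61e-06). COL1A1 and FMOD climbed over the first 96 h, with differences at 48 h of 2.86 and 2.83, whereas LOX and FN1 were within 1 of their 96 h level by 48 h. The member that fell was FBN2, fibrillin 2, by 0.61, singled out after its value was seen.

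Basement membrane genes moved in both directions. Of 8 measured members, 5 rose and 3 fell, with a median difference of 1.00. LAMB1, the laminin beta 1 chain, rose from 3.95 and 3.95 at 0 h to 9.91 and 9.83 at 96 h, a difference of 5.92 ± 0.11 (SE, adjusted p = 9.14e-08). LAMA2, the laminin alpha 2 chain, fell from 9.58 and 9.56 at 0 h to 5.51 and 5.66 at 96 h, a difference of -3.99 ± 0.16 (SE, adjusted p = 9.35e-07), and LAMB2 fell by 2.08. COL15A1, a basement membrane zone collagen, rose from 3.89 and 3.86 at 0 h to 8.21 and 8.18 at 96 h, a difference of 4.32 ± 0.15 (SE, adjusted p = 4.99e-07). Its difference at 48 h was 0.34 and was not called, and at 144 h it was 4.65.

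Contractile genes all rose, 13 of 13, with a median difference of 3.77. TAGLN, the actin-binding protein transgelin, rose from 5.89 and 6.02 at 0 h to 11.65 and 11.76 at 96 h, a difference of 5.75 ± 0.11 (SE, adjusted p = 9.14e-08). ACTA2, smooth muscle alpha actin, rose from 7.86 and 7.78 at 0 h to 11.72 and 11.82 at 96 h, a difference of 3.95 ± 0.12 (SE, adjusted p = 3.31e-07). CNN1, calponin, rose by 4.88, TPM2, beta tropomyosin, by 4.87 and ACTN1, alpha actinin 1, by 4.49. Of the 13, 11 were also called higher at both 48 h and 144 h. Against the mean of those times, 9 were called higher at 96 h, beside 13.6% of all features. Adhesion genes and targets of YAP followed, with 17 of 23 higher, none lower and 6 not called, and a median of 1.50. ITGB3, integrin beta 3, which binds vitronectin and fibronectin, rose from 4.20 and 4.27 at 0 h to 9.54 and 9.56 at 96 h, a difference of 5.32 ± 0.12 (SE, adjusted p = 1.21e-07). ITGA11, a collagen-binding integrin subunit, rose by 5.17 ± 0.11 (SE, adjusted p = 9.97e-08), and ITGA8 by 5.16 ± 0.26 (SE, adjusted p = 2.45e-06).

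Of 17 genes of cell-cell junctions, 4 rose, 4 fell and 9 were not called, with a median of -0.05, shares close to the background of named genes. CDH11, a cadherin of mesenchymal cells, rose from 3.88 and 3.95 at 0 h to 8.05 and 8.05 at 96 h, a difference of 4.14 ± 0.39 (SE, adjusted p = 6.32e-05). DSP, desmoplakin of desmosomes, rose by 3.80 ± 0.16 (SE, adjusted p = 1.06e-06), and MAL2, a protein of apical transport in polarised cells, fell from 9.37 and 9.46 at 0 h to 4.96 and 4.86 at 96 h, a difference of -4.50 ± 0.12 (SE, adjusted p = 1.62e-07). Among proteases and their inhibitors, 12 of 20 rose and 4 fell, with a median of 0.92. CTSK, the collagen-degrading protease cathepsin K, rose from 6.84 and 7.01 at 0 h to 9.73 and 9.86 at 96 h, a difference of 2.87 ± 0.12 (SE, adjusted p = 9.33e-07), and MMP2, gelatinase A, rose by 2.39 ± 0.12 (SE, adjusted p = 2.17e-06). SERPINE2, an inhibitor of plasminogen activators and thrombin, fell by 2.53. SERPINB2, another plasminogen activator inhibitor, rose by a measured 3.16 from below the lower quartile, and stood 2.27 lower at 96 h than the mean of 48 h and 144 h.

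Markers of fibroblasts and of smooth muscle rose beside the matrix and contractile genes. All 9 measured fibroblast markers rose, with a median of 3.88, and their summed level was 40.06 and 41.70 at 0 h and 73.30 and 73.04 at 96 h. A summed level, here and below, adds the log2 levels of the members and is not a total of signal. PDPN, podoplanin, had levels of 4.73 and 5.29 at 0 h and 9.24 and 9.22 at 96 h, S100A4 rose by 4.34, PDGFRB, a growth factor receptor of fibroblasts and pericytes, by 2.35 and THY1 by 2.36. COL1A1, COL3A1, DCN and LUM stand both in this list and among the fibrillar matrix genes. FAP rose by 2.06 from below the lower quartile, with a call lost under some alternatives. Of 6 markers of smooth muscle and pericytes, 5 rose, and their summed level was 34.70 and 35.11 at 0 h and 48.74 and 48.95 at 96 h. CNN1 and ACTA2, given above with the contractile genes, had the largest rises of the 6, 4.88 and 3.95. These markers are therefore not a group apart from the contractile genes. RGS5, a pericyte marker, rose by 0.93 at 96 h but at 144 h was called lower than at 0 h, with a difference of -0.64; CSPG4 rose by 1.36, SMTN by 2.28, and MCAM was not called with 0.54. The part of other cells in the matrix and contractile values was not tested.

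Genes of cell division fell. Of 16 measured mitosis genes, 15 fell and 1 rose, with a median of -1.54, and of 12 DNA replication genes 10 fell and none rose, with a median of -1.42. CDK1, the kinase that starts mitosis, had levels of 8.29 and 8.34 at 0 h and 5.44 and 5.80 at 96 h, a difference of -2.69 ± 0.23 (SE, adjusted p = 3.82e-05), and a second feature differed by -0.21. CENPA, the centromeric histone, fell by 2.68, TOP2A, topoisomerase II alpha, by 2.53 and UBE2C, of the anaphase-promoting complex, by 2.52. The mitosis gene that rose was ANLN, the actin-binding protein anillin, with a difference of 0.98, named here after its value was seen. Among replication genes, POLE2, a subunit of DNA polymerase epsilon, fell by 2.56, CDC45 of the replicative helicase by 2.18 and RFC3 of the clamp loader by 1.86. Of the 16 mitosis genes, 5 were called higher at 96 h than the mean of 48 h and 144 h and 3 were called lower. Over all features, 13.6% were called higher and 15.8% lower in that contrast.

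Inhibitors of the cell cycle and targets of p53 showed no shared direction, with 4 of 11 higher, 4 lower and 3 not called. CDKN1A, the inhibitor p21, rose from 6.28 and 6.13 at 0 h to 8.65 and 8.52 at 96 h, a difference of 2.38 ± 0.14 (SE, adjusted p = 6.5e-06), and PLK2, a kinase induced by p53, rose by 2.82 ± 0.15 (SE, adjusted p = 3.21e-06). CDKN2C, the inhibitor p18, fell from 6.61 and 6.71 at 0 h to 3.90 and 3.74 at 96 h, a difference of -2.84 ± 0.14 (SE, adjusted p = 1.87e-06), and BTG2, an antiproliferative factor, fell by 2.25.

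Interferon-induced genes were lower at 96 h. Of 19 measured members, 14 fell, none rose and 5 were not called, with a median of -1.68. CXCL10, a chemokine that attracts T cells, fell from 7.48 and 8.07 at 0 h to 2.58 and 2.63 at 96 h, with both 96 h levels below the lower quartile and a measured difference of -5.17 ± 0.22 (SE, adjusted p = 1.07e-06). IFIT3 fell from 7.50 and 7.54 at 0 h to 3.69 and 3.70 at 96 h, a difference of -3.83 ± 0.27 (SE, adjusted p = 1.26e-05), IFIT1 by 3.71 and MX2 by 3.39, all proteins that restrict viruses. Of the 14, 13 were also called lower at both 48 h and 144 h. Against the mean of those times, 9 of the 19 members were called lower at 96 h, beside 15.8% of all features. Of 10 markers of macrophages and leukocytes, 6 fell and 2 rose, and their summed level was 43.82 and 44.47 at 0 h and 37.49 and 37.43 at 96 h. PTPRC, the leukocyte antigen CD45, had levels of 4.53 and 4.35 at 0 h and 3.62 and 3.75 at 96 h, and its called difference of -0.76 was lost under some alternatives. FCER1G and TYROBP, adaptor proteins of myeloid receptors, fell by 2.97 and 2.19, MRC1, the mannose receptor, by 1.24 and CD2 by 1.11. LYZ, lysozyme, rose by 1.75, although its other feature differed by 0.10, and CD14 rose by 0.76 with a call lost under some alternatives. ITGAM and AIF1 lay below the lower quartile on all 4 arrays, AIF1 with a called difference of -0.49 that was lost under some alternatives, and CD3E was not called. The part of leukocytes in the interferon values was not tested.

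Cytokines and chemokines split, with 7 of 24 higher, 6 lower and 11 not called, not far from the background of named genes (21.5% higher, 23.4% lower). CCL2, the monocyte chemoattractant, rose from 6.32 and 6.28 at 0 h to 11.13 and 11.08 at 96 h, a difference of 4.81 ± 0.12 (SE, adjusted p = 1.62e-07). VCAM1, an adhesion molecule for leukocytes, rose from 3.98 and 4.32 at 0 h to 8.24 and 8.22 at 96 h, a difference of 4.08 ± 0.16 (SE, adjusted p = 7.45e-07), and LIF, a cytokine of the interleukin 6 family, rose by 3.11 ± 0.22 (SE, adjusted p = 1.36e-05). TNFSF10, the death ligand TRAIL, fell by 2.94 to below the lower quartile.

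Chaperones moved one by one. Of 16 heat shock proteins, 7 rose, 4 fell and 5 were not called, with a median of -0.05. DNAJB1, a co-chaperone induced by heat, fell from 10.46 and 10.55 at 0 h to 7.24 and 7.38 at 96 h, a difference of -3.20 ± 0.11 (SE, adjusted p = 4.99e-07), and HSPH1 fell by 1.22. HSPB8, a small heat shock protein, rose from 3.10 and 3.09 at 0 h to 6.59 and 6.64 at 96 h, a measured difference of 3.52 ± 0.15 (SE, adjusted p = 1.12e-06), and DNAJB4 rose by 1.30. HSPB8 was higher at 96 h than on any array of the neighbouring times. In the list of unfolded protein and amino acid response genes, 8 of 21 rose and 5 fell, with a median of 0.29. PSAT1 and PSPH, enzymes of serine synthesis, rose by 2.04 and 1.25 and ASNS, asparagine synthetase, by 1.52, and each was also called at 48 h and 144 h. DDIT3, the stress factor CHOP, fell from 7.62 and 7.56 at 0 h to 5.84 and 5.82 at 96 h, a difference of -1.75 ± 0.13 (SE, adjusted p = 2.16e-05), while at 48 h and 144 h its differences of -0.03 at 48 h and -0.15 at 144 h were not called.

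Genes of glucose use were divided as well, with 8 of 17 higher, 5 lower and a median of 0.08. HK1, hexokinase 1, rose from 7.49 and 7.39 at 0 h to 10.73 and 10.60 at 96 h, a difference of 3.23 ± 0.13 (SE, adjusted p = 9.94e-07), and HK2 rose by 1.81. PDK4, a kinase that blocks entry of pyruvate into mitochondria, fell from 8.07 and 8.33 at 0 h to 3.42 and 3.24 at 96 h, a difference of -4.87 ± 0.19 (SE, adjusted p = 8.79e-07). CA9, a carbonic anhydrase induced by low oxygen, fell, with a difference of -1.68 ± 0.12 (SE, adjusted p = 1.51e-05), and was called at neither neighbouring time. HK1 was 1.35 higher at 96 h than the mean of 48 h and 144 h, and PDK4 was 2.23 lower.

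Cholesterol synthesis genes rose, 9 of 11 with none lower, and had a median of 1.32. FDPS, farnesyl diphosphate synthase, rose from 5.93 and 5.88 at 0 h to 8.38 and 8.46 at 96 h, a difference of 2.51 ± 0.15 (SE, adjusted p = 5.26e-06), and HMGCS1, at the start of the pathway, rose by 2.34 ± 0.27 (SE, adjusted p = 0.000201). CYP51, lanosterol demethylase, rose by 2.06, and INSIG1, a sterol-sensing protein of the endoplasmic reticulum, by 2.25. At 48 h only 2 of the 11 were higher and 1 was lower, and at 144 h 8 were higher. The shares of all features called in either direction were 30% at 48 h and 32.1% at 144 h. INSIG1 had a difference of -0.61 at 48 h, and both of its 96 h levels lay above every array of the other times. In all, 7 of the 11 were called higher at 96 h than the mean of 48 h and 144 h, beside 13.6% of all features. Of 22 genes of fatty acid and lipid handling, 14 rose and 5 fell, with a median of 0.86. ACSL4, a ligase that activates arachidonic acid, rose from 8.75 and 8.91 at 0 h to 11.39 and 11.39 at 96 h, a difference of 2.56 ± 0.16 (SE, adjusted p = 8.41e-06). Its relative ACSL3 rose by 2.10 ± 0.21 (SE, adjusted p = 8.37e-05) and was called at neither 48 h nor 144 h. PLA2G4E, a phospholipase A2, fell from 9.24 and 9.40 at 0 h to 3.59 and 3.65 at 96 h, a difference of -5.70 ± 0.11 (SE, adjusted p = 9.14e-08).

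Antioxidant genes fell more often than they rose, 13 of 21 against 7, with a median of -0.53. GCLC, the rate-limiting enzyme of glutathione synthesis, fell from 10.56 and 10.68 at 0 h to 8.20 and 8.17 at 96 h, a difference of -2.44 ± 0.12 (SE, adjusted p = 1.82e-06). GSTA4, another alpha-class glutathione transferase, fell from 11.45 and 11.30 at 0 h to 8.18 and 8.35 at 96 h, a difference of -3.10 ± 0.14 (SE, adjusted p = 1.38e-06), and was lower at 96 h than at 48 h, with -0.46, or 144 h, with -1.66. SRXN1, sulfiredoxin, rose by 2.32 ± 0.11 (SE, adjusted p = 1.77e-06).

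Genes of the respiratory chain, ribosome, proteasome and splicing were called at 96 h in both directions. In the respiratory chain, 8 of 17 rose and 7 fell, with a median of 0.12. At 48 h 6 rose and none fell, and at 144 h 4 rose and none fell. Over all features and both directions, 30% were called at 48 h and 32.1% at 144 h. NDUFB3, of complex I, rose from 5.25 and 5.33 at 0 h to 7.71 and 7.71 at 96 h, a difference of 2.42 ± 0.11 (SE, adjusted p = 1.36e-06). UQCRB of complex III rose by 1.67, CYCS, cytochrome c, by 1.42 and ATP5A1 of the ATP synthase by 1.22. Of the 17, 10 were called at 96 h and supported at neither neighbouring time. Of all 10707 named genes, 1419 were of this kind, 29.5% of those called.

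Among 41 ribosomal protein genes, 11 rose, 7 fell and 23 were not called, with a median of 0.04. The share called was close to that of all named genes, of which 21.5% were higher and 23.4% lower. At 48 h 1 rose and 3 fell, and at 144 h none rose and 3 fell, beside 30% and 32.1% of all features called in either direction. RPS16 rose from 5.82 and 5.57 at 0 h to 8.68 and 8.99 at 96 h, a difference of 3.14 ± 0.15 (SE, adjusted p = 1.97e-06). RPL23A rose from 7.71 and 7.88 at 0 h to 9.76 and 9.79 at 96 h, a difference of 1.98 ± 0.12 (SE, adjusted p = 6.18e-06), and its other feature rose by 0.98, while at 48 h and 144 h its differences were -0.42 at 48 h and -0.46 at 144 h, called in the other direction. RPLP1 rose by 1.83, and RPS27 fell from 10.33 and 10.33 at 0 h to 7.45 and 7.55 at 96 h, a difference of -2.83 ± 0.10 (SE, adjusted p = 6.41e-07). Ribosomal protein genes have many near-identical copies in the genome, so these values are uncertain as to which copy was measured.

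Of 17 translation factors, 9 rose and none fell, with a median of 0.45. EIF5B, which joins the ribosomal subunits, rose from 7.10 and 7.06 at 0 h to 9.05 and 9.11 at 96 h, a difference of 2.00 ± 0.11 (SE, adjusted p = 4.48e-06). EIF2S1 and EIF2S2, subunits of the factor that brings the initiator tRNA, rose by 1.81 and 1.42, and EIF3A by 1.32. Splicing factors rose in 9 of 24 cases and fell in 9, with a median of 0.06. HNRNPM, an RNA-binding protein, rose by 1.27 ± 0.15 (SE, adjusted p = 0.000249) and was called at neither 48 h nor 144 h, whereas HNRNPF rose by 1.09 and was called at both. CLK4, a kinase of splicing factors, fell by 1.11 and SNRPA1 rose by 1.11. In the proteasome, 6 of 15 rose and 5 fell, against 6 higher and none lower at 48 h. At 48 h 30% of all features were called in either direction. PSMB4, a core subunit, fell from 10.80 and 10.72 at 0 h to 9.02 and 8.95 at 96 h, a difference of -1.78 ± 0.11 (SE, adjusted p = 6.21e-06), and PSMB6 fell by 1.45. PSME2, a subunit of the interferon-induced activator, fell, with a difference of -1.39 ± 0.12 (SE, adjusted p = 3.7e-05), after being called higher at 48 h and at 144 h, with differences of 0.79 at 48 h and 0.46 at 144 h. PSMA4 rose by 1.24.

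Signalling genes held several of the larger changes. In the TGF-beta, activin and BMP family 11 of 25 rose and 6 fell, with a median of 0.29. LTBP2, a matrix protein related to the carriers of latent TGF-beta, rose from 4.10 and 4.21 at 0 h to 9.41 and 9.38 at 96 h, a difference of 5.24 ± 0.17 (SE, adjusted p = 3.75e-07), of which 0.95 was present at 48 h. SMAD7, an inhibitor of TGF-beta signalling that the pathway itself induces, rose from 2.58 and 2.91 at 0 h to 7.63 and 7.53 at 96 h, a measured difference of 4.84 ± 0.14 (SE, adjusted p = 2.31e-07). GREM1, a secreted antagonist of BMPs, rose from 4.49 and 4.35 at 0 h to 8.78 and 8.69 at 96 h, a difference of 4.32 ± 0.51 (SE, adjusted p = 0.000237). Of 21 Wnt, hedgehog and Notch genes, 5 rose, 5 fell and 11 were not called, shares close to the background of named genes (21.5% higher, 23.4% lower). SFRP1, a relative of SFRP2, rose from 3.26 and 3.37 at 0 h to 6.53 and 6.58 at 96 h, a difference of 3.24 ± 0.53 (SE, adjusted p = 0.0014), and TCF7L2, a transcription factor of Wnt signalling, fell, with a difference of -1.89 ± 0.11 (SE, adjusted p = 4.67e-06). GLI1, a target of hedgehog signalling, was not called, with levels of 3.58 and 3.73 at 0 h and 3.63 and 3.71 at 96 h.

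In the insulin-like growth factor axis, 4 of 14 rose and 6 fell, with a median of -0.02. PAPPA, the protease that frees the growth factor from its binding protein, fell from 8.18 and 8.26 at 0 h to 4.90 and 5.12 at 96 h, a difference of -3.21 ± 0.12 (SE, adjusted p = 7.04e-07). IRS1, the substrate of the receptor, fell by 2.62. The binding proteins IGFBP5 and IGFBP7 rose, IGFBP5 from 4.86 and 5.18 at 0 h to 9.42 and 9.40 at 96 h, a difference of 4.39 ± 0.14 (SE, adjusted p = 3.09e-07), and IGFBP7 by 2.71. All 12 immediate early genes were called, 6 higher and 6 lower. EGR1 fell from 11.46 and 11.59 at 0 h to 9.42 and 9.21 at 96 h, a difference of -2.21 ± 0.32 (SE, adjusted p = 0.000746), ATF3 fell by 2.34 and NR4A2 by 1.50, all transcription factors induced within minutes of a stimulus. DUSP5, a phosphatase that switches off ERK, rose by 2.17 ± 0.22 (SE, adjusted p = 9.54e-05).

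**Figure D3:**
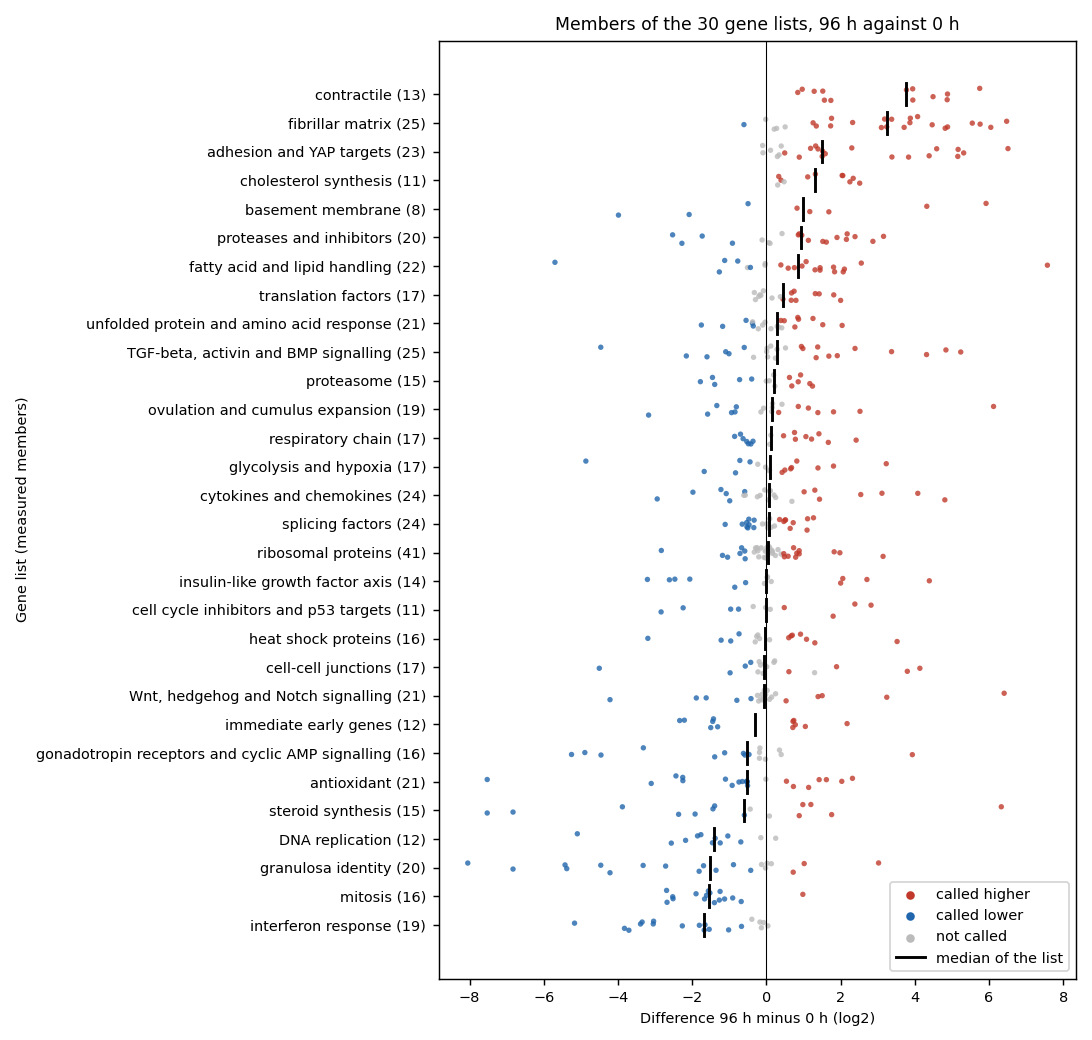
Each point is 1 measured member of a gene list, with its difference at 96 h minus 0 h on the log2 scale on the x axis, and each row is 1 of 30 lists with its number of measured members, ordered by median. Red points were called higher, blue lower and grey not called, and the black bar is the median, from 3.77 for contractile genes to -1.68 for interferon response.

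Markers of other cells were measured in the same arrays. Of 11 oocyte markers, 8 fell and none rose, with a median of -2.11, and their summed level was 54.49 and 53.54 at 0 h and 36.61 and 36.80 at 96 h. ZP4, a zona pellucida protein, had levels of 6.39 and 5.94 at 0 h and 3.07 and 3.09 at 96 h, a difference of -3.08 ± 0.19 (SE, adjusted p = 6.86e-06), and GDF9, a growth factor of the oocyte, had levels of 6.91 and 6.91 at 0 h and 5.57 and 5.62 at 96 h, a difference of -1.32 ± 0.13 (SE, adjusted p = 7.26e-05). BMP15 fell by 2.37, ZP2 by 2.10, ZP3 by 1.17, KPNA7 by 2.29, H1FOO by 2.33 and BTG4 by 2.22. OOEP and SYCP3 lay below the lower quartile on all 4 arrays, and ZAR1 was not called. All 8 falls were also called at 48 h and 144 h, and no oocyte marker was called between 96 h and the mean of those times. Endothelial markers moved little at 96 h. KDR fell by 0.88 to below the lower quartile, although its other feature differed by 0.10, and TEK, VWF, CLDN5 and ENG were not called. PECAM1 rose by 0.53 with a call lost under some alternatives. It was also called higher at both neighbouring times, by 1.01 at 48 h and 1.14 at 144 h. The summed level of the endothelial markers was 24.38 and 24.57 at 0 h and 23.87 and 24.08 at 96 h. Of 5 theca markers, INSL3 fell from 5.80 and 5.72 at 0 h to 4.00 and 3.97 at 96 h, a difference of -1.77 ± 0.12 (SE, adjusted p = 1.01e-05), LUM rose by 3.24, and CYP17A1, NR2F2 and GLI1 were not called. Their summed level was 24.03 and 23.95 at 0 h and 25.65 and 25.76 at 96 h. LUM, the only theca marker called higher, is also in the fibroblast and fibrillar matrix lists above. Among epithelial markers KRT8 rose by 1.89, KRT19 differed by 1.30 with adjusted p = 0.0802, and KRT18, EPCAM and LRRN4 were not called. Their summed level was 19.64 and 20.59 at 0 h and 22.91 and 23.12 at 96 h. KRT19 was called higher than at 0 h at the neighbouring times, by 3.88 at 48 h and 2.62 at 144 h. EPCAM was called higher at 48 h, by 0.645 from below the lower quartile, and not at 144 h. Of 3 erythrocyte markers, HBB and ALAS2 lay below the lower quartile at both times, HBB with a called difference of -0.50 (adjusted p = 0.026) that was lost under some alternatives, and ALAS2 and SLC4A1 were not called, and the summed level was 9.68 and 9.54 at 0 h and 9.15 and 8.92 at 96 h. The part of other cells in the changes above was not tested.

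The calls at 96 h were then marked by whether the neighbouring times made the same call against 0 h. Of the 11375 calls, 5235 (46%) were made in the same direction at both 48 h and 144 h, 1550 (13.6%) at 144 h only, 677 (5.95%) at 48 h only and 3913 (34.4%) at neither. Among the 4810 named genes called, 2458 (51.1%) were supported at both times and 1419 (29.5%) at neither. The supported calls were larger. The median absolute difference was 1.278 for calls made at both times, 0.912 for 144 h only, 0.721 for 48 h only and 0.687 for neither, and 64.3% of the first and 23.7% of the last were at least 2-fold. Since the size of a difference also decides whether it is called at another time, this order describes the classes and was not tested. Leaving out single arrays moved 3 of the counts by more than 1.5 times. The class of 48 h only ran from 333 without replicate 1 of 48 h to 1675 without replicate 1 of 144 h, and was 433 without replicate 2 of 0 h, 439 without replicate 2 of 48 h, 405 and 406 without either array of 96 h and 1143 without replicate 2 of 144 h. The class of 144 h only was 2406 without replicate 1 of 48 h, and the class with no support was 2533 without replicate 1 of 96 h.

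**Figure D4:**
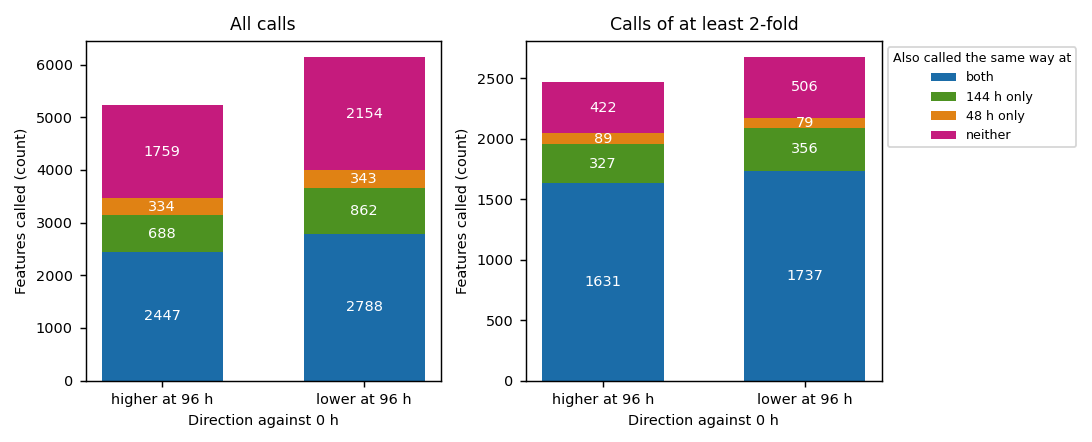
Bars count the features called at 96 h against 0 h by direction, on the left all calls and on the right those of at least 2-fold, and colour shows at which neighbouring times the same call was made. Among calls of at least 2-fold, 1631 higher and 1737 lower features were supported at both times, against 422 and 506 at neither.

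Genes called at 96 h and 144 h but not at 48 h included several of matrix and adhesion. A missing call at 48 h does not show that the level was unchanged there. ITGA8, an integrin subunit of mesenchymal cells, had levels of 3.17 and 3.16 at 0 h and 8.30 and 8.35 at 96 h. Its measured difference was 5.16 ± 0.26 (SE, adjusted p = 2.45e-06), against 0.80 at 48 h (adjusted p = 0.0504) and 5.90 at 144 h. CTHRC1, a secreted collagen-associated protein, had levels of 2.54 and 2.91 at 0 h and 7.50 and 7.59 at 96 h and a measured difference of 4.82 ± 0.50 (SE, adjusted p = 0.000109). At 48 h CTHRC1 differed by 1.50 (adjusted p = 0.0542), with levels of 4.15 and 4.30, and its 144 h arrays, 7.83 and 5.93, lay far apart. TMEM255A, a membrane protein, had levels of 4.06 and 3.50 at 0 h and 8.94 and 8.83 at 96 h, and its arrays at 144 h, 8.30 and 6.37, lay far apart. COL15A1 and CDH11, described above, were the other 2 of the 5 largest rises. CDH11 differed by 1.015 at 48 h (adjusted p = 0.0864), and its 144 h arrays were 9.18 and 7.72. The falls of this class held LHCGR and immune genes. SLA-DRA, a chain of the class II major histocompatibility complex, fell from 7.75 and 8.05 at 0 h to 3.50 and 3.41 at 96 h, a difference of -4.44 ± 0.35 (SE, adjusted p = 2.36e-05), and SLA-DQA1 fell by 3.30. CD209, a lectin of dendritic cells and macrophages, fell by 3.11, and C7, a component of complement, from 6.42 and 6.54 at 0 h to 2.95 and 2.86 at 96 h, with 96 h levels below the lower quartile. Macrophage markers in this class were PTPRC, FCER1G and TYROBP, lower, and CD14, higher, and their part in these falls was not tested.

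Few large changes were called at 96 h and 48 h but not at 144 h. After KITLG the largest rises were XIAP, an inhibitor of caspases, by 2.42, ZBTB41 by 2.27, SNRPD3, a core protein of the spliceosome, by 2.08, and TRNT1, the enzyme that adds the CCA end to tRNA, by 2.01. XIAP had levels of 4.82 and 5.06 at 0 h and 7.33 and 7.38 at 96 h, against 5.74 and 5.66 at 48 h and 5.92 and 5.07 at 144 h. The largest falls were TMEM141 by 2.93, JOSD2, a deubiquitinase, by 2.28, HDDC3 by 2.12, FOLR2, a folate receptor of macrophages, by 2.04, and RIPK3, a kinase of necroptosis, by 2.03. JOSD2 had another feature with a difference of -0.51. TMEM141 had levels of 9.79 and 10.07 at 0 h and 7.14 and 6.85 at 96 h, and at 144 h it was back at 9.68 and 9.60. In all 10 of these genes, KITLG among them, the difference at 96 h was larger than at either neighbouring time. The choice of the genes favoured this, since they had the largest differences at 96 h in a class not called at 144 h.

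A contrast without the 0 h arrays set 96 h against the mean of 48 h and 144 h. It called 8105 features (29.4%), 3758 higher at 96 h (13.6%) and 4347 lower (15.8%), of which 821 and 1127 were at least 2-fold. With each array centred on its median, 4314 were higher and 3999 lower. The count fell to 3785 without replicate 1 of 96 h and to 3991 without replicate 2. Of the 3913 calls against 0 h with no support, 2871 were also called further from 0 h than the mean of 48 h and 144 h. That class was chosen on the same 48 h, 96 h and 144 h arrays, which favours this outcome. The count therefore describes the class and is not separate support for it. Of the 5235 calls supported at both times, 1584 were called further from 0 h than that mean and 438 short of it.

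The genes furthest above the neighbouring times were ANKRD1, TMEM255A, LOC100627892, LOC100525935, LOC100525590, RPS16, LIPG and EIF1B. ANKRD1 stood 3.33 ± 0.27 (SE, adjusted p = 0.000102) above that mean, with levels of 3.99 and 4.18 at 48 h and 7.39 and 8.45 at 144 h. The 3 genes known by number, LOC100627892, LOC100525935 and LOC100525590, are long non-coding RNA genes in the reference, and their differences from 0 h were 2.40, 2.60 and 1.65. LOC100525935 had levels of 8.34 and 8.14 at 0 h and 10.81 and 10.87 at 96 h, while its 4 arrays at 48 h and 144 h lay between 7.31 and 8.15. EIF1B, a factor of translation initiation, had levels of 5.87 and 5.48 at 0 h and 7.95 and 8.03 at 96 h, a difference from 0 h of 2.31 ± 0.18 (SE, adjusted p = 2.17e-05), and differences of -0.25 at 48 h and -0.47 at 144 h that were not called. NDUFS6, a subunit of complex I, had levels of 5.99 and 5.98 at 0 h and 8.21 and 8.21 at 96 h, a difference of 2.23 ± 0.10 (SE, adjusted p = 1.6e-06), and lay between 6.13 and 6.24 at 48 h and 144 h. For EIF1B and NDUFS6 the 0 h, 48 h and 144 h arrays lay together and only the 96 h arrays stood apart.

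The genes furthest below the neighbouring times were DDX60, LOC100154181, DPM3, TXNIP, SLA-DRA, MSMB, ATG4C and SRGN. DDX60, a helicase induced by interferon, had levels of 6.75 and 6.91 at 0 h and 3.67 and 3.87 at 96 h, a difference of -3.06 ± 0.21 (SE, adjusted p = 1.12e-05), and at 48 h it was called higher than 0 h by 0.92. Its other feature had a difference of -1.57 at 96 h. DPM3, a subunit of dolichol-phosphate mannose synthase, had levels of 10.20 and 10.12 at 0 h and 5.92 and 6.04 at 96 h, a difference of -4.18 ± 0.14 (SE, adjusted p = 3.75e-07), against differences of -0.63 at 48 h and -0.83 at 144 h. LOC100154181, a protein-coding gene, fell from 10.45 and 10.83 at 0 h to 4.03 and 3.81 at 96 h and had differences of -2.93 at 48 h and -3.44 at 144 h. MSMB, a secreted microseminoprotein, fell by 3.04, and at 48 h its difference of 0.22 was not called. SRGN, the proteoglycan of leukocyte granules, had levels of 6.17 and 6.33 at 0 h and 2.97 and 3.26 at 96 h, a difference of -3.14 ± 0.39 (SE, adjusted p = 0.000319), and arrays of 4.35 and 5.80 at 144 h. ATG4C, a protease of autophagy, fell from 7.86 and 7.73 at 0 h to 5.34 and 5.26 at 96 h, a difference of -2.49 ± 0.16 (SE, adjusted p = 7.87e-06), with differences of 0.36 at 48 h and -0.01 at 144 h that were not called. RARB, a retinoic acid receptor, and DCTN6, a subunit of dynactin, were also called lower at 96 h alone, with differences of -2.65 ± 0.21 (SE, adjusted p = 2.45e-05) and -2.50 ± 0.19 (SE, adjusted p = 2.01e-05).

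**Figure D5:**
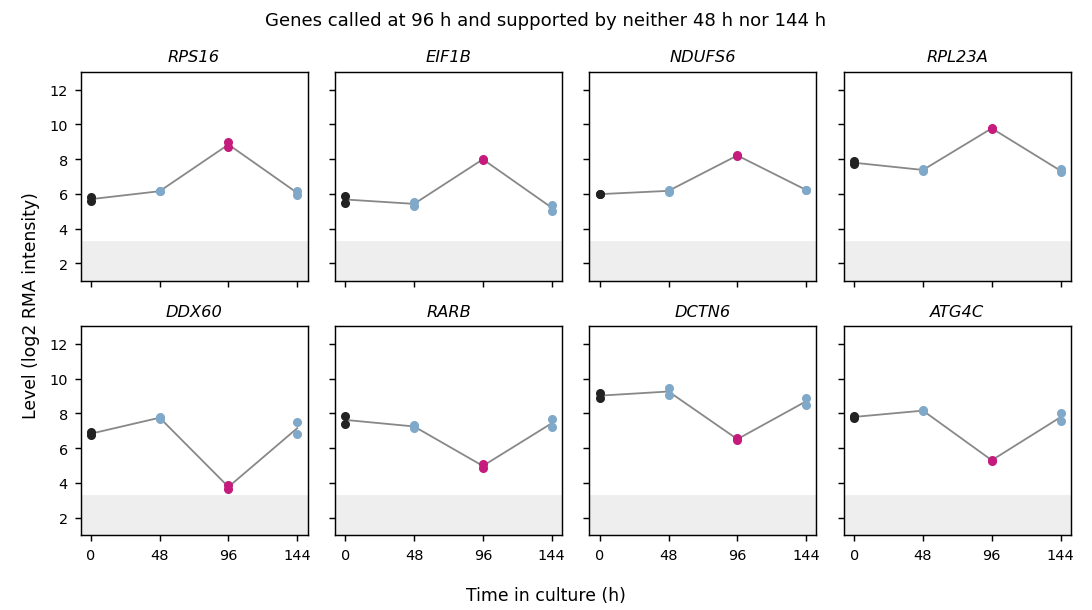
Each panel shows 1 gene called at 96 h against 0 h and supported at neither 48 h nor 144 h, with time in hours on the x axis and the level as log2 RMA intensity on the y axis; points are single arrays (magenta 96 h), the line joins means and the grey band lies below 3.25. In each panel both 96 h arrays lie beyond all 6 other arrays, above them for RPS16, EIF1B, NDUFS6 and RPL23A and below them for DDX60, RARB, DCTN6 and ATG4C.

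Where a gene had more than 1 feature, its other features were read on the same arrays. They are not always a separate reading. For EIF2S2, SRXN1 and LOC100627892 the other feature had the same difference as the one given, 1.422, 2.319 and 2.402. Such genes are in the counts that follow, and whether features share probes was not examined. For genes supported at both times, 190 of 252 other features (75.4%) were called the same way at 96 h and 10 (3.97%) the other way. At 144 h only the counts were 52 and 1 of 64, and at 48 h only 21 and 0 of 29. For genes with no support, 81 of 160 (50.6%) were called the same way and 12 (7.5%) the other way. Differences in the unsupported class were also smaller, and the 2 shares were not compared by a test.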

How the data were processed

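Expression was measured on 8 Affymetrix whole-transcript arrays, 2 at each of 0 h, 48 h, 96 h and 144 h. The authors deposited log2 intensities made by RMA, per the submitters' processing notes. The software behind RMA, and how it was set, is not given in the sources used here. RMA normalizes between arrays, so these values are not a measure of a shift common to most transcripts. Groups come from the labelled time point. Gene symbols came from the platform annotation at GEO, some of it old. It gave 1 symbol to 11735 features (10707 genes, 6 symbols updated). Several entries went to 612 features, 1 symbol repeated in 239 of them, and 15211 had none. The last 2 kinds were tested and stay unnamed. A gene with several features is given by the brightest over the 8 arrays.

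All 8 arrays entered 1 linear model with a mean for each time (limma 3.58.1, R 4.3.3, lmFit and eBayes), with 4 residual and 3.98 prior degrees of freedom. Tests were two-sided, with Benjamini-Hochberg adjustment over 27558 features. A call at 96 h was marked as supported by a time called in the same direction against 0 h. The model and the call at 96 h against 0 h were tried on simulated arrays. The marking of support and the list counts were not part of that trial.

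The text names the 15 largest rises and falls without overlap at 96 h, up to 4 members per list by size of difference, the 8 furthest each way from the mean of 48 h and 144 h with both 96 h arrays beyond all 4, and the 5 largest each way in each class short of full support. It adds all members of the granulosa, gonadotropin and steroid lists and all other cell markers. The 30 function lists, the 8 marker lists and the members were chosen with earlier results of these data known. Alternatives were 3 scalings between arrays, a filter on dim features, another variance model, the replicate block, fewer arrays in the fit, stricter thresholds, other features of a gene and leaving out each array. A search for promoter motifs was not run, since no promoter sequence was used here.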

Additional observations from a re-analysis of the deposited data

How the results depend on the processing

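The counts at 96 h against 0 h kept within 1.5 times under each other scaling (cyclic loess, quantile normalization, median centring), without dim features, with trend and robust variance, and in a fit to only the 4 arrays of 0 h and 96 h. Median centring moved the median difference over all features from -0.03 to 0.06 and turned the majority of calls from lower to higher, 6129 against 5285. A fit without both 144 h arrays, chosen after seeing the data because they differed most from each other, called 13076. With a fold of at least 2 the count was 5147, 2469 higher and 2678 lower. Leaving out single arrays gave 8215 to 13076 calls, 3866 to 6038 higher and 4349 to 7038 lower. Against the mean of 48 h and 144 h, the count was 4783 at an adjusted p below 0.01 (2074 higher, 2709 lower), 1948 with a fold of at least 2 (821 and 1127) and 3785 to 10028 without single arrays (1640 to 4729 higher, 2145 to 5299 lower).

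Calls supported at both times numbered 3457 at an adjusted p below 0.01 and 2044 with a fold of at least 2 at every time, and 3830 to 6075 without single arrays. Those supported at 48 h only numbered 375, 185 and 333 to 1675 in the same order. At 144 h only a fold of at least 2 gave 793 and single arrays 1174 to 2406. With no support a fold of at least 2 gave 2125 and single arrays 2533 to 4526.

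Replicate numbers were not shown to pair arrays, since the deviations of same-numbered arrays correlated at between -0.04 and 0.19, below 0.1 for 5 of 6 pairs of times. With the replicate block 11398 features were called at 96 h against 0 h, 5216 higher and 6182 lower, and 8146 against the mean of 48 h and 144 h, 3757 higher and 4389 lower. The block gave 5206 calls supported at both times, 706 at 48 h only, 1570 at 144 h only and 3916 at neither.

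Of 238 named genes 208 were called, and 198 of these kept the call at an adjusted p below 0.05 in every refit that held them (6 were left out with the dim features). The others were ADCY3, AIF1, CD14, FAP, GJA1, HBB, PDE10A, PDE4D, PECAM1 and PTPRC, and no called gene reversed. At an adjusted p below 0.01 the call was lost by 8 of the 208, and with a fold of at least 2 by 16. Up to 9 calls were lost by leaving out 1 array of 0 h or 96 h. With the median over all features of a gene, all 76 list counts stayed within 1.5 times, and with cyclic loess 74 of 76. A search for promoter motifs was not run. Where both levels lie near the lower quartile, the signal over background limits what a difference can show.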
